A study of Bos grunniens with 18 samples.

Results

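Gene expression in the testis of 4-year-old yaks (Y4Y) was compared with that of 18-month-old yaks (Y18M), a late step of testis development. Genes of meiosis and of spermatids were already measured in all 18-month animals, those of spermatids at unequal levels. The yak (Bos grunniens) is a seasonally breeding bovine of the high plateau. The comparison used 6 of the 18 libraries of the series, that is 3 gene libraries at each of these ages, chosen by their titles, and all 22183 genes of the count table entered it by identifier. All animals were healthy males of 1 cooperative, and testis tissue was taken from each of them by castration at the stated age. The 3 libraries of 6-month-old males (Y6M) entered the filter on low counts, the scaling of the counts and the estimate of the spread. They are also given beside some genes as a reference level. No treatment or genotype separated the ages, and the replicate numbers name different animals. The sample titles and the protocol give these ages, whereas a separate label names Y4Y infancy and Y18M adulthood, and the titles were followed. Total RNA freed of ribosomal RNA was sequenced in read pairs, and a level is given as CPM, the deposited estimated count of a gene scaled to a common library size by the TMM method.

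Spermatogenesis runs from spermatogonia, which divide by mitosis, through spermatocytes, which pair and recombine their chromosomes in meiosis, to haploid spermatids. Spermatids build the acrosome and the flagellum, replace their histones with transition proteins and then protamines, and shed most of their cytoplasm. Sertoli cells enclose and feed the germ cells inside the tubules, peritubular myoid cells surround the tubules, and Leydig cells between them make testosterone. In immature testes Sertoli cells still divide and secrete anti-Müllerian hormone, and both activities fade with puberty. In whole tissue, fewer cells of a type and less RNA per cell cannot be told apart. A level is also relative to the rest of the library. A lower level therefore cannot be told apart from more RNA of other cells. Both limits hold for every level below.

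The 6 libraries held between 22950630 and 33123856 counts each. Defining markers of the testis were measured at both ages. They were DDX4 and PRM1 for germ cells, SOX9 for Sertoli cells, INSL3 for Leydig cells and ACTA2 for peritubular cells. The epididymal genes CRISP1, LCN8 and GPX5 did not pass the filter on low counts. Of 25 listed genes of the rete testis, efferent ducts and epididymis, 8 did pass it. The 18-month animals were unlike each other. Relative to the mean of the 4-year libraries, 378 of 16742 genes (2.26%) differed at least 2-fold in Y18M replicate 1, 7452 (44.5%) in Y18M replicate 2 and 2594 (15.5%) in Y18M replicate 3, against 67 to 94 genes in the 4-year libraries themselves. The median SD of log2 CPM between replicates was 0.494 at 18 months and 0.176 at 4 years. Y18M replicate 2 also stood apart in its mitochondrially encoded transcripts, which made up 1.86% of its CPM against 0.0044% to 0.0135% in the other 8 gene libraries. It is not known whether such reads had been removed from the other libraries, so this may not be a difference between animals. Because of this spread, the replicate values, their overlap and the size of the difference are given for each gene, and counts are repeated without Y18M replicate 1 or 2 where these decide them.

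Only 1 of the 16742 tested genes (0.00597%) passed edgeR's quasi-likelihood test at a Benjamini-Hochberg adjusted p under 0.05, and it was lower at 4 years. The next smallest adjusted p in that edgeR test was 0.174, shared by 1343 genes. At an unadjusted p under 0.05 the same test counted 901 genes higher and 2671 lower. A gene is called wholly higher below when its 3 values at 4 years all lay above its 3 values at 18 months, and wholly lower in the opposite case. By this rule 1981 genes (11.8%) were wholly higher and 2278 (13.6%) wholly lower, and 810 (4.84%) and 950 (5.67%) of them also differed at least 2-fold in their means. An exact two-sided permutation test of 3 against 3 animals cannot give a p below 0.1, so no p is attached to these counts. The median log2 fold change over all tested genes was -0.03.

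**Figure D1:**
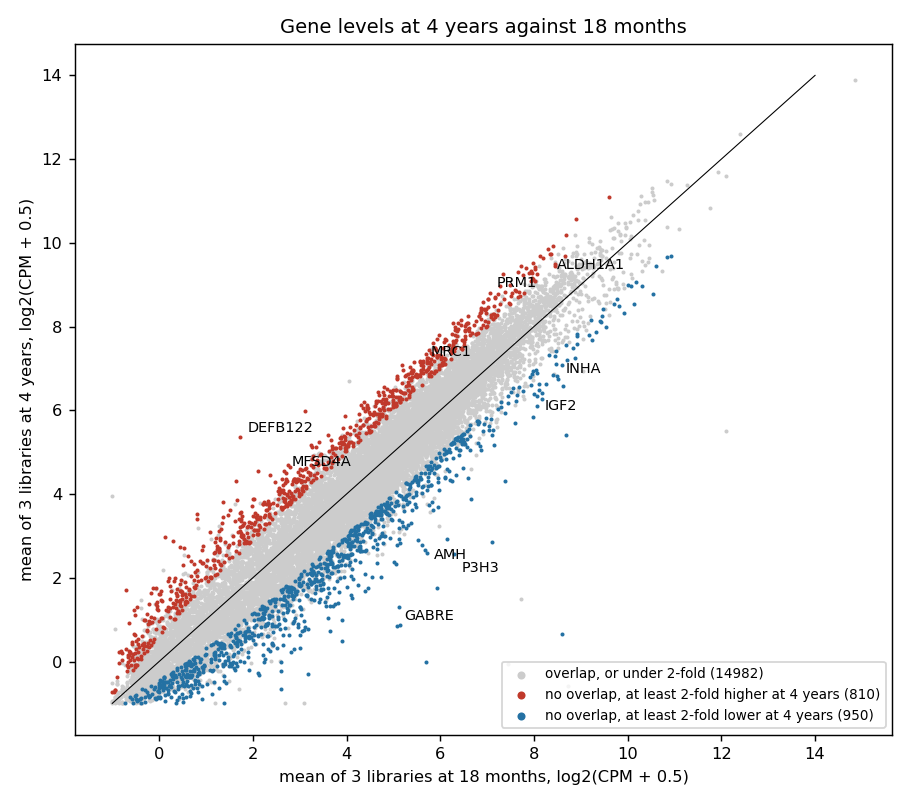
Mean level of each of the 16742 tested genes at 18 months (horizontal axis) and at 4 years (vertical axis), both as log2(CPM + 0.5) over 3 libraries. The 810 red genes were wholly higher and at least 2-fold higher at 4 years, the 950 blue genes wholly lower and at least 2-fold lower, and grey genes overlapped between the ages or differed less.

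EdgeR gave 0 calls without any single 4-year library and again 1 call without Y18M replicate 3. Leaving out Y18M replicate 1 raised the edgeR count from 1 to 5607 genes, 2247 higher and 3360 lower. The wholly higher and wholly lower counts then stood at 5132 and 5667. With any library left out, fewer values have to lie apart, so these counts can rise from that alone. Leaving out Y18M replicate 2 gave 2 calls, both lower, and 2459 wholly higher and 2687 wholly lower genes, of which 504 and 481 differed at least 2-fold.

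The genes with the smallest p were taken from wholly higher or wholly lower genes at least 2-fold apart in their means. Those with the widest gap between the ages, the ratio between the nearest replicates, were also taken from wholly higher or wholly lower genes. The absence of overlap in both groups is thus set by the choice and is no result. MFSD4A (ENSBTAG00000004952), a membrane transporter of the major facilitator family, stood at 6.33, 5.37 and 5.97 CPM at 18 months and at 26.3, 20.6 and 21.8 CPM at 4 years (log2 fold change 1.96 ± 0.30, SE). The 3 animals of each age were close together, and the ages were 3.25-fold apart at their nearest. GPR155 (ENSBTAG00000021636), which encodes a lysosomal membrane protein that senses cholesterol, stood at 7.92, 10.3 and 8.07 CPM at 18 months and at 19.8, 20.7 and 23.3 CPM at 4 years (log2 fold change 1.28 ± 0.21). EFEMP1 (ENSBTAG00000017448), an extracellular glycoprotein of elastic tissue, stood at 2.32, 2.702 and 3.53 CPM and then at 7.39, 14.2 and 12.9 CPM (log2 fold change 2.01 ± 0.40). For both genes the lowest 4-year value was about 1.93 and 2.09 times the highest 18-month value, respectively.

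NR5A2 (ENSBTAG00000009265), a nuclear receptor that controls steroid and cholesterol genes, was low at both ages, with 1.66, 0.889 and 0.746 CPM at 18 months and 4.77, 4.72 and 4.99 CPM at 4 years (log2 fold change 2.13 ± 0.37). The 3 values at 4 years were nearly equal. PALS1 (ENSBTAG00000011767), a scaffold protein of apical cell polarity, stood at 94.6, 60.3 and 68.3 CPM and then at 190.5, 148 and 156 CPM (log2 fold change 1.15 ± 0.20). NAALAD2 (ENSBTAG00000000284), a membrane peptidase, stood at 2.42, 0.992 and 2.72 CPM and then at 11.7, 6.52 and 10.2 CPM (log2 fold change 2.21 ± 0.40), which brought the older animals back towards the 15.2, 15.9 and 21.03 CPM of the 6-month libraries. SHTN1 (ENSBTAG00000007578), a protein of growing axons, was likewise lowest at 18 months, with 7.94, 7.37 and 6.13 CPM at 6 months, 5.04, 3.93 and 2.92 CPM at 18 months and 12.3, 9.46 and 9.34 CPM at 4 years (log2 fold change 1.38 ± 0.28). PGAP6 (ENSBTAG00000016588), a phospholipase that releases GPI-anchored proteins, stood at 37.9, 27.3 and 24.9 CPM at 18 months and at 77.8, 61.1 and 55.8 CPM at 4 years (log2 fold change 1.11 ± 0.22). None of these genes overlapped between the ages, as their choice required.

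3 further genes of this group were higher still by ratio. DEFB122 (ENSBTAG00000027384), a β-defensin, stood at 6.56, 0.103 and 1.82 CPM at 18 months and at 35.5, 36.3 and 49.2 CPM at 4 years (log2 fold change 3.83 ± 1.01), with a nearest ratio of 5.403. It was lowest in Y18M replicate 2 and nearly unmeasured in it. CLEC2B (ENSBTAG00000055140), a C-type lectin-like protein, stood at 4.18, 1.06 and 2.79 CPM and then at 15.3, 9.46 and 17.5 CPM (log2 fold change 2.40 ± 0.50), and CEACAM21 (ENSBTAG00000054156), a cell adhesion molecule, at 0.0663, 0.0684 and 0.195 CPM and then at 3.44, 2.86 and 1.94 CPM (log2 fold change 4.58 ± 0.84). DEFB122, CLEC2B, CEACAM21 and the olfactory receptor gene OR11J6 (ENSBTAG00000048109), at 5.04, 0.239 and 1.75 CPM and then 12.1, 12.03 and 11.4 CPM, belong to families of similar genes, so reads may have been divided among copies.

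Among the wholly lower genes with the smallest p, most were low or near 0 at 4 years. P3H3 (ENSBTAG00000003598), a collagen prolyl hydroxylase, stood at 24.2, 157 and 53.4 CPM at 18 months and at 6.43, 4.69 and 5.14 CPM at 4 years (log2 fold change -3.85 ± 0.61). Its level in Y18M replicate 2 lay within the range of the 6-month libraries, at 159.9, 154 and 134 CPM, and it was called by edgeR when that replicate was left out, with an adjusted p of 0.0383. GABRE (ENSBTAG00000013548), a subunit of the GABA receptor, stood at 6.27, 62.7 and 30.6 CPM and then at 1.46, 0.796 and 1.66 CPM (log2 fold change -4.67 ± 0.77), so that Y18M replicates 2 and 3 exceeded the 6.13, 5.72 and 7.999 CPM of the 6-month libraries as well. GPR162 (ENSBTAG00000034385), an orphan receptor, stood at 5.57, 21.96 and 8.49 CPM and then at 1.29, 1.27 and 0.9102 CPM (log2 fold change -3.37 ± 0.54). PLPPR4 (ENSBTAG00000019031), a phospholipid phosphatase-related membrane protein, stood at 6.598, 24.2 and 12.5 CPM and then at 2.28, 0.914 and 1.31 CPM (log2 fold change -3.26 ± 0.54). Among the 18-month animals replicate 2 was highest and replicate 1 lowest in each of these genes, and replicate 1 was still above all 4-year animals.

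CRABP2 (ENSBTAG00000005716), a carrier of retinoic acid, stood at 4.18, 7.94 and 4.51 CPM at 18 months and at 0.3404, 0.05896 and 0 CPM at 4 years, where it was at the limit of detection (log2 fold change -5.31 ± 0.85). The smallest ratio between an 18-month and a 4-year animal was 12.3. STUM (ENSBTAG00000024560) stood at 1.59, 8.69 and 6.32 CPM and then at 0.306, 0.354 and 0.396 CPM (log2 fold change -3.96 ± 0.60), and SLITRK2 (ENSBTAG00000039377), a synaptic adhesion protein, at 1.23, 5.92 and 4.44 CPM and then at 0.272, 0.324 and 0.317 CPM (log2 fold change -3.64 ± 0.62). OC90 (ENSBTAG00000007736), known from the otoconia of the inner ear, was at or below 0.119 CPM at 4 years in all libraries after 0.696, 2.46 and 1.95 CPM at 18 months. PLEKHG1 (ENSBTAG00000009679), a guanine nucleotide exchange factor, stood at 20.03, 31.3 and 20.2 CPM and then at 9.91, 8.79 and 9.97 CPM (log2 fold change -1.32 ± 0.23). The groups did not overlap for any of them, again by the choice of genes.

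GSTA2 (ENSBTAG00000006546), an α-class glutathione transferase, stood at 102, 178 and 223 CPM at 18 months and at 16.5, 15.9 and 25.6 CPM at 4 years (log2 fold change -3.11 ± 0.89), a nearest ratio of 3.96. The 6-month libraries ranged from 103 to 1472 CPM. GSTA2 and its neighbour GSTA1, which was wholly higher at 4 years, have nearly the same sequence, so the division of reads between them is uncertain.

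**Figure D2:**
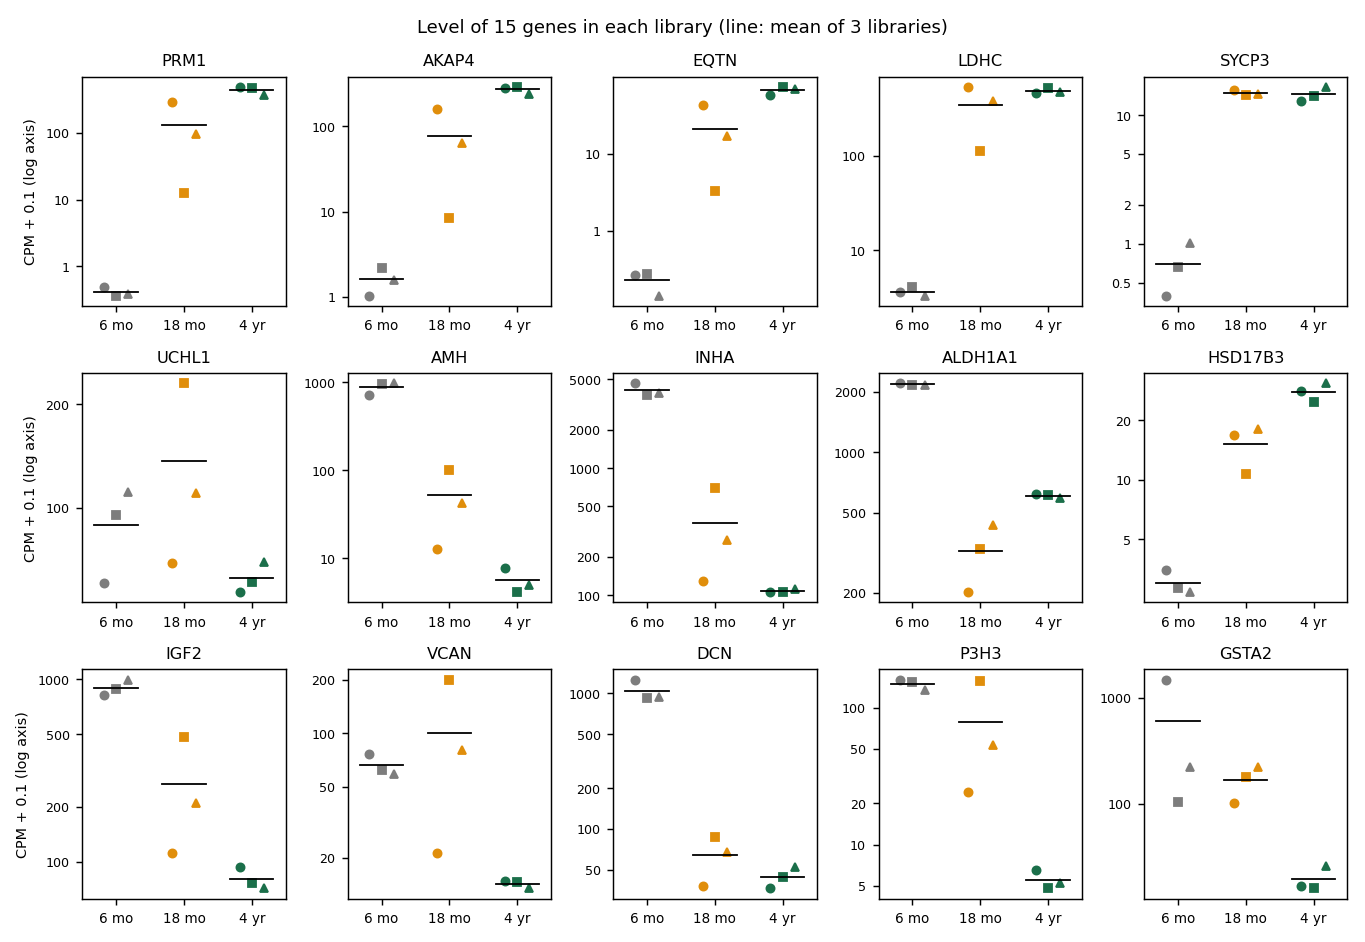
Level of 15 genes in each of the 9 gene libraries as CPM + 0.1 on a log axis, with circles, squares and triangles for replicates 1, 2 and 3 and a line at the mean of 3 libraries. Of the 18-month libraries, replicate 1 lies nearest to the 4-year libraries for PRM1, AKAP4, INHA and IGF2, and replicate 3 for ALDH1A1 and HSD17B3. For P3H3 and GSTA2 all 18-month libraries lie far from them, with nearest ratios of 3.76 and 3.96.

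The biology of the step was described through 37 lists of genes by cell type and process. None of their 1013 tested members passed the edgeR test. At an unadjusted p under 0.05 in that test, 42 members were higher at 4 years and 197 lower. Of all 16742 tested genes, 901 were higher and 2671 lower by the same measure. DESeq2 called 8 members higher and 64 lower, against 1.16% and 4.25% of all genes. Without Y18M replicate 1, edgeR called 166 members higher and 261 lower, against 13.2% and 19.8% of all genes, and the list counts in that setting below are to be read against these shares. Lists are therefore given by their wholly higher and wholly lower members, to be read against 11.8% and 13.6% of all tested genes, and by their median log2 fold change, against -0.03 for all genes.

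**Figure D3:**
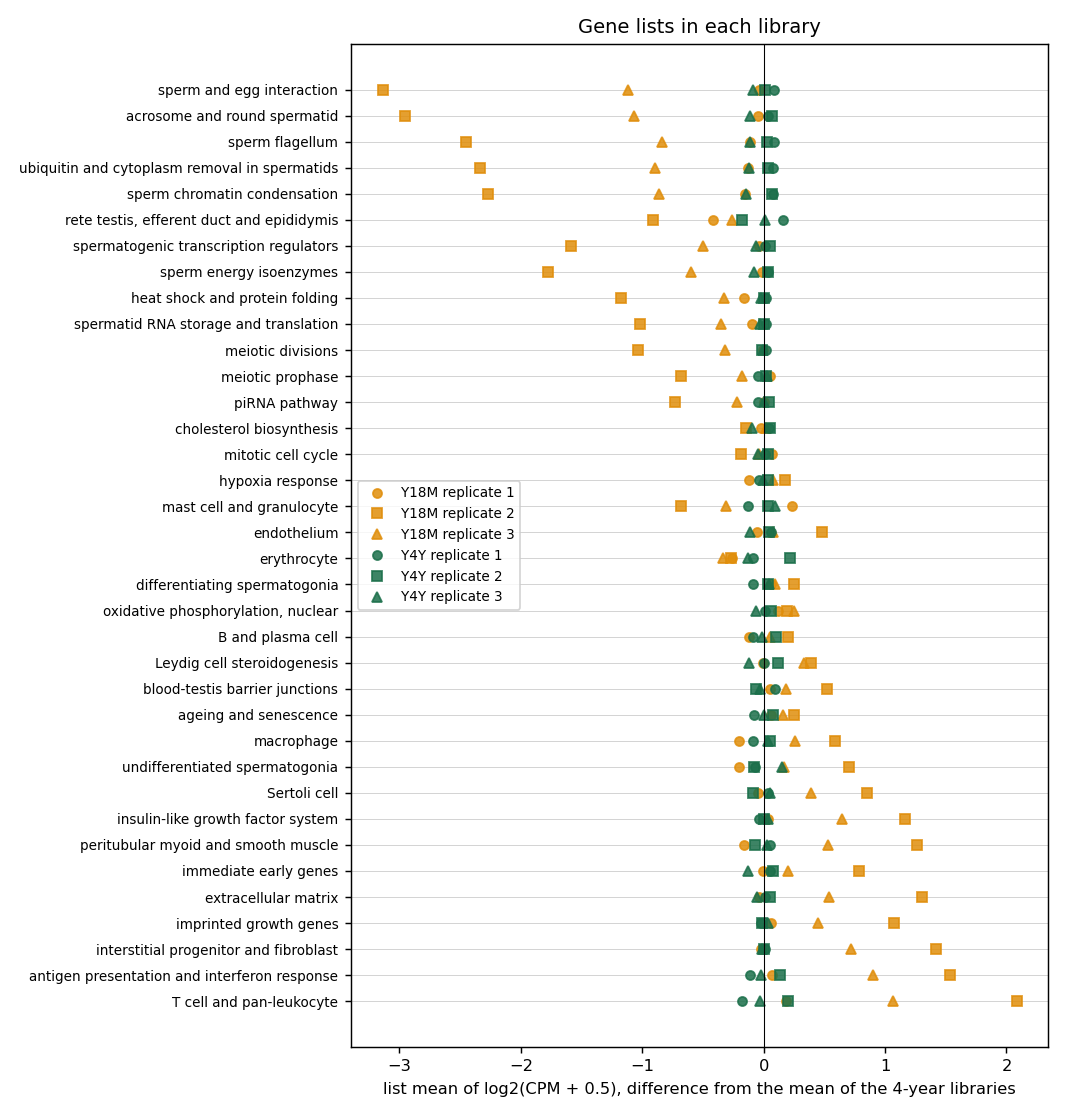
Mean log2(CPM + 0.5) of the tested members of 36 lists in each library, as the difference from the mean of the 4-year libraries, ordered by the median log2 fold change. Sperm lists lie to the left in Y18M replicates 2 and 3 and most somatic and immune lists to the right. Exceptions to the left in these replicates are the mast cell and granulocyte list (-0.68 and -0.31) and the duct list (-0.91 and -0.26). The erythrocyte list (-0.27 and -0.34) is another. Y18M replicate 1 lies close to 0 in most lists. The 7 mitochondrially encoded genes, at 8.71 in Y18M replicate 2, are not drawn.

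Genes of spermatids and sperm had mostly positive log2 fold changes, none of them called by edgeR, and the 18-month animals differed in how far they lay below the 4-year animals. Of 42 acrosome and round spermatid genes, all had a positive log2 fold change, 12 (28.6%) were wholly higher and 0 wholly lower, and the median was 0.94. Their mean log2 level lay 0.04 below the 4-year mean in Y18M replicate 1, 2.95 below it in replicate 2 and 1.06 below it in replicate 3. Without Y18M replicate 1, edgeR called 20 of the 42 higher, where 13.2% of all genes were called higher, and without Y18M replicate 2 the median was 0.46. Over this and the 7 other spermatid and sperm lists below, chaperones left aside, the medians without Y18M replicate 2 lay between 0.18 and 0.47. The 42 levels added up to 7856, 1306 and 4183 CPM in the 18-month libraries and to 8398, 8694 and 7499.6 CPM in the 4-year libraries. In the same animals the T cell and matrix lists described below lay in the opposite order, and their part in the differences of the sperm genes was not tested. EQTN (ENSBTAG00000034391), a protein of the acrosomal membrane, stood at 43.3, 3.15 and 16.99 CPM at 18 months and at 57.7, 73.03 and 69.9 CPM at 4 years (log2 fold change 1.66 ± 0.71). ACTL9 (ENSBTAG00000011255), an actin-related protein of the perinuclear theca, stood at 258, 17.1 and 92.5 CPM and then at 405, 327 and 297 CPM (log2 fold change 1.48 ± 0.72). SPACA9 (ENSBTAG00000005189), an acrosome-associated microtubule protein, stood at 7.63, 1.47 and 4.02 CPM and then at 13.9, 12.97 and 8.31 CPM (log2 fold change 1.42 ± 0.52). All 3 were wholly higher, with Y18M replicate 2 lowest in each. ACRV1 (ENSBTAG00000033384), the acrosomal vesicle protein of round spermatids, overlapped between the ages, with 176, 11.7 and 67.4 CPM at 18 months and 161, 214 and 167 CPM at 4 years (log2 fold change 1.09 ± 0.74).

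Nuclear condensation genes showed the same order of animals. Of 20 sperm chromatin condensation genes, 7 (35%) were wholly higher and 0 wholly lower, with a median of 0.63 and with 6 called higher and 1 lower by edgeR without Y18M replicate 1. The protamine gene PRM1 (ENSBTAG00000021493) stood at 288, 12.5 and 96.5 CPM at 18 months and at 489.8, 479 and 378 CPM at 4 years (log2 fold change 1.76 ± 0.81), and PRM2 (ENSBTAG00000032880) at 717, 34.7 and 272 CPM and then at 1067, 1125 and 731 CPM (log2 fold change 1.51 ± 0.90). Both were wholly higher, PRM2 by a margin of 1.02-fold between the nearest animals. Transition proteins occupy the DNA between histones and protamines, and TNP2 (ENSBTAG00000032884) was wholly higher at 94.7, 5.405 and 40.3 CPM and then 152, 175 and 104 CPM (log2 fold change 1.62 ± 0.76). TNP1 (ENSBTAG00000019003) overlapped, with 833, 35.9 and 303 CPM at 18 months and 986, 1055 and 771 CPM at 4 years (log2 fold change 1.26 ± 0.92), because Y18M replicate 1 exceeded the lowest 4-year animal. CHD5 (ENSBTAG00000040477), a chromatin remodeller of histone removal, stood at 208, 35.4 and 80.4 CPM and then at 287, 294 and 263 CPM (log2 fold change 1.38 ± 0.51). TSSK6 (ENSBTAG00000006649), a testis kinase needed in the mouse for condensation, stood at 126, 5.88 and 48.8 CPM and then at 251, 202 and 168 CPM (log2 fold change 1.78 ± 0.84). Neither of these 2 genes overlapped.

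Of 63 flagellum genes, 62 had a positive log2 fold change, 21 (33.3%) were wholly higher and 0 wholly lower, and the median was 0.83. With Y18M replicate 1 left out, edgeR called 33 of them higher. AKAP4 (ENSBTAG00000016399), the main protein of the fibrous sheath, stood at 159, 8.38 and 63.6 CPM at 18 months and at 285, 290.2 and 241 CPM at 4 years (log2 fold change 1.82 ± 0.78), and ODF1 (ENSBTAG00000003445), of the outer dense fibres, at 182, 10.4 and 69.3 CPM and then at 303, 278 and 200.5 CPM (log2 fold change 1.58 ± 0.77). The order of the 18-month animals was the same for both. CABYR (ENSBTAG00000005638), a calcium-binding protein of the fibrous sheath, stood at 215, 52.2 and 142 CPM and then at 286, 302 and 216 CPM (log2 fold change 0.98 ± 0.42). The axoneme genes CFAP61 (ENSBTAG00000009291), at 51.99, 20.6 and 44.1 CPM and then 63.1, 68.5 and 59.2 CPM (log2 fold change 0.71 ± 0.30), and RSPH3 (ENSBTAG00000005955), at 61.9, 13.8 and 28.5 CPM and then 78.8, 68.6 and 70.2 CPM (log2 fold change 1.06 ± 0.44), belong to the radial spokes and their base. These sheath and axoneme genes were all wholly higher. The lowest 4-year value was 1.52 times that of Y18M replicate 1 for AKAP4. The margin over that replicate was smaller for CABYR (1.004-fold), CFAP61 (1.14-fold) and RSPH3 (1.11-fold).

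Sperm and egg interaction genes had the highest list median, 0.98 over 22 genes, with 9 (40.9%) wholly higher and 1 wholly lower, and without Y18M replicate 1 edgeR called 11 higher and 1 lower. ACE (ENSBTAG00000024950), whose germinal form acts in sperm transport and binding in the mouse, stood at 234, 21.1 and 84.03 CPM at 18 months and at 337, 326 and 258 CPM at 4 years (log2 fold change 1.44 ± 0.66). IZUMO2 (ENSBTAG00000044113), of the Izumo family, stood at 20.2, 0.787 and 8.202 CPM and then at 28.6, 28.2 and 21.9 CPM (log2 fold change 1.43 ± 0.83). Both were wholly higher. The wholly lower member was SPACA6 (ENSBTAG00000048204), needed for gamete fusion in the mouse, at 5.47, 19.5 and 8.3 CPM and then 4.29, 3.18 and 5.07 CPM (log2 fold change -1.41 ± 0.46). Its 6-month level, 22.8, 38.6 and 24.5 CPM, was higher than that of both older ages, unlike those of EQTN, PRM1 and AKAP4, which ranged up to 2.08 CPM.

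Of 26 tested genes of sperm energy isoenzymes, 6 (23.1%) were wholly higher and 1 wholly lower, with a median of 0.57. HK1 (ENSBTAG00000012380), the hexokinase with a sperm-specific form, stood at 379, 150.0 and 179.5 CPM at 18 months and at 531, 448 and 401 CPM at 4 years (log2 fold change 0.96 ± 0.34), and ENO4 (ENSBTAG00000004330), an enolase of the flagellum, at 104, 16.8 and 44.7 CPM and then at 127, 117 and 114 CPM (log2 fold change 1.11 ± 0.51). Neither overlapped. LDHC (ENSBTAG00000002488), the testis lactate dehydrogenase already made by spermatocytes, overlapped, with 537, 114 and 381 CPM at 18 months and 460.0, 522 and 472 CPM at 4 years (log2 fold change 0.50 ± 0.45). Citrate synthase, CS (ENSBTAG00000004371), was wholly lower at 50.96, 101 and 74.7 CPM and then 45.9, 48.3 and 48.6 CPM (log2 fold change -0.67 ± 0.24), and its symbol is carried by 2 identifiers.

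Spermatids store messages and translate them later. Of 30 RNA storage and translation genes, 8 (26.7%) were wholly higher and 0 wholly lower, with a median of 0.41. TENT5C (ENSBTAG00000046509), a poly(A) polymerase needed for sperm head attachment in the mouse, stood at 97.8, 29.6 and 54.6 CPM at 18 months and at 173, 147 and 147 CPM at 4 years (log2 fold change 1.36 ± 0.38), and EIF4G3 (ENSBTAG00000040215), a translation factor of meiosis, at 163, 95.3 and 129 CPM and then at 195, 213 and 197 CPM (log2 fold change 0.64 ± 0.22). Of 27 genes of ubiquitin and cytoplasm removal, 9 (33.3%) were wholly higher and 2 (7.4%) wholly lower, with a median of 0.76, and edgeR called 17 higher and 1 lower without Y18M replicate 1. CUL3 (ENSBTAG00000021769), the scaffold of a ubiquitin ligase of spermatids, stood at 302, 125 and 225 CPM and then at 332, 362 and 341 CPM (log2 fold change 0.67 ± 0.28). USP49 (ENSBTAG00000008981), a deubiquitinase of histone H2B, stood at 126, 16.9 and 49.1 CPM and then at 167, 159.8 and 141 CPM (log2 fold change 1.29 ± 0.56). The proteasome subunit gene PSMD4 (ENSBTAG00000006101) went the other way, at 145, 264 and 184 CPM and then 132, 130.1 and 121 CPM (log2 fold change -0.63 ± 0.22). Each of these genes was without overlap between the ages.

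Of 29 heat shock and protein folding genes, 10 (34.5%) were wholly higher and 2 (6.9%) wholly lower, with a median of 0.44, or 0.15 without Y18M replicate 2. HSPA4L (ENSBTAG00000015692), a chaperone expressed in spermatocytes and spermatids, stood at 427, 73.2 and 246 CPM at 18 months and at 607, 579 and 526 CPM at 4 years (log2 fold change 1.20 ± 0.51), and DNAJB4 (ENSBTAG00000021752), an HSP40 co-chaperone, at 94.96, 12.1 and 40.9 CPM and then at 127, 141 and 110.1 CPM (log2 fold change 1.35 ± 0.57). Both were wholly higher. CRYAB (ENSBTAG00000000434), the small heat shock protein of muscle and lens, overlapped, at 15.7, 91.4 and 39.6 CPM and then 15.7, 15.9 and 13.7 CPM (log2 fold change -1.69 ± 0.52). Of the 29, edgeR called 7 higher and 7 lower without Y18M replicate 1. Of 31 transcription regulators of spermatogenesis, 7 (22.6%) were wholly higher and 1 (3.2%) wholly lower, with a median of 0.58. LIN54 (ENSBTAG00000010546), a DNA-binding subunit of the MuvB complex, stood at 29.7, 15.7 and 21.2 CPM and then at 32.2, 36.7 and 35.02 CPM (log2 fold change 0.64 ± 0.25), without overlap.

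**Figure D4:**
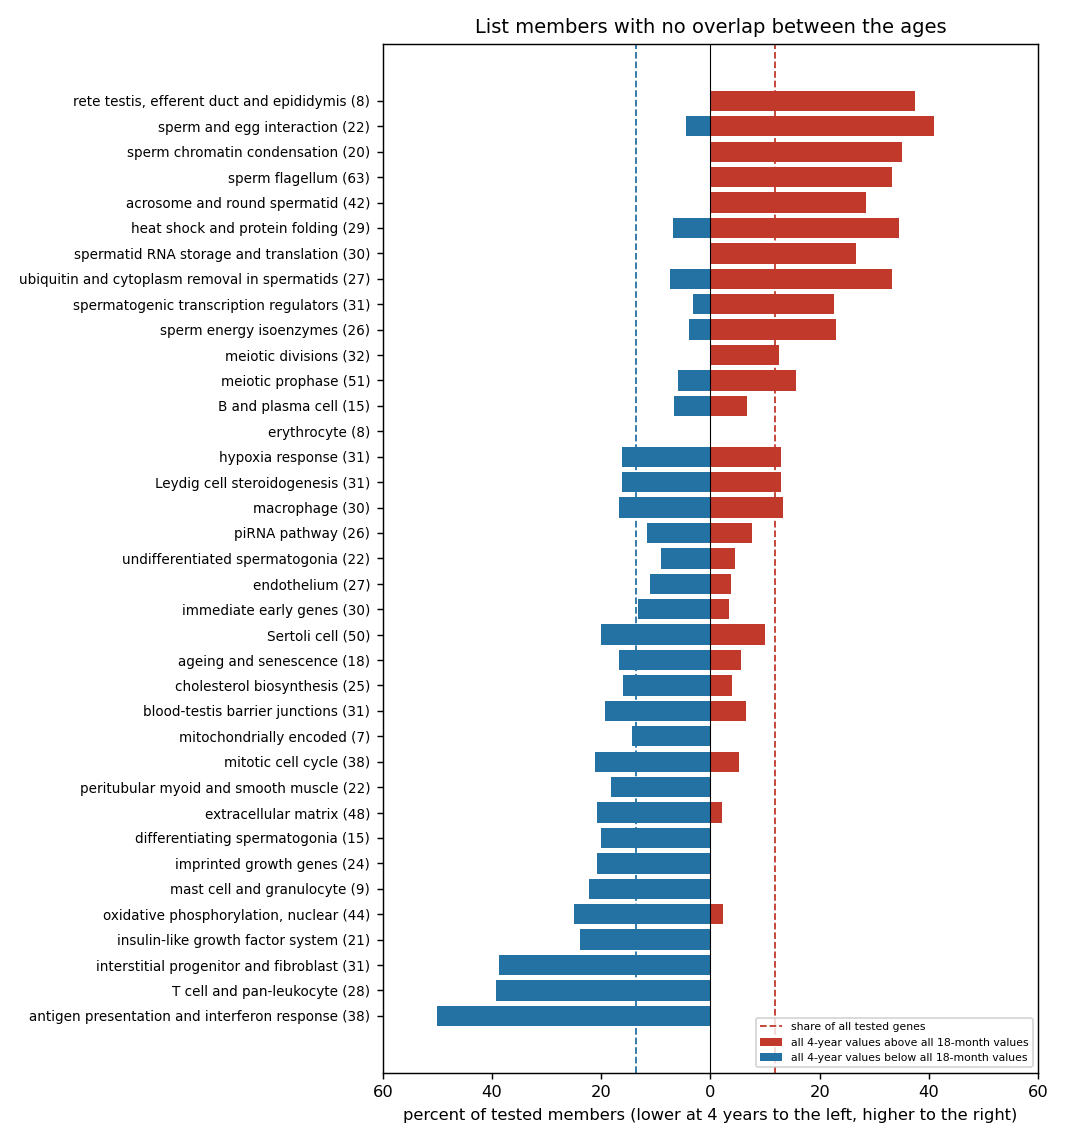
Share of tested members of each of the 37 lists, with the number tested in brackets, that were wholly higher (red, to the right) or wholly lower (blue, to the left) at 4 years than at 18 months. Dashed lines give the share of all tested genes, 11.8% and 13.6%, which the sperm lists exceed to the right and the interstitial, T cell and antigen presentation lists to the left.

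Of 51 meiotic prophase genes, which act in chromosome pairing and recombination, 8 (15.7%) were wholly higher and 3 (5.9%) wholly lower, with a median of 0.25, or 0.08 without Y18M replicate 2. Their mean log2 level in Y18M replicate 2 lay 0.68 below the 4-year mean, and that of the acrosome list 2.95 below it, a difference between lists that was not tested. SYCP3 (ENSBTAG00000002492), of the synaptonemal complex, stood at 15.6, 14.1 and 14.5 CPM at 18 months and at 12.7, 13.9 and 16.4 CPM at 4 years (log2 fold change -0.04 ± 0.32), so that the animals of both ages overlapped fully, Y18M replicate 2 included. TEX15 (ENSBTAG00000017083), needed for recombination and transposon silencing, was wholly higher at 187, 108 and 149.8 CPM and then 226, 238 and 245 CPM (log2 fold change 0.67 ± 0.21). MLH3 (ENSBTAG00000019279), of the crossover machinery, stood at 28.8, 16.6 and 27.4 CPM and then at 35.7, 36.9 and 32.8 CPM (log2 fold change 0.53 ± 0.23). MEI1 (ENSBTAG00000004488), which acts in making meiotic breaks, was wholly lower, at 28.4, 88.5 and 50.02 CPM and then 28.3, 25.1 and 26.8 CPM (log2 fold change -1.06 ± 0.35), and its nearest animals were almost equal. Its 6-month level of 282, 262 and 303 CPM was far above both ages, at a time when SYCP3 stood at 0.296, 0.564 and 0.914 CPM. Of 32 genes of the meiotic divisions, 4 (12.5%) were wholly higher and 0 wholly lower, with a median of 0.37, or 0.17 without Y18M replicate 2.

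The piRNA pathway silences transposons in germ cells. Of 26 tested genes, 2 (7.7%) were wholly higher and 3 (11.5%) wholly lower, with a median of 0.25, or 0.14 without Y18M replicate 2. DDX4 (ENSBTAG00000008871), the germ cell helicase, was wholly higher by the narrow margin of 1.02-fold between the nearest animals, at 225, 81.3 and 155 CPM at 18 months and 229, 245 and 265 CPM at 4 years (log2 fold change 0.68 ± 0.34). PIWIL1 (ENSBTAG00000006468), the Piwi protein of pachytene spermatocytes, overlapped, at 202, 78.1 and 138 CPM and then 225, 273 and 184 CPM (log2 fold change 0.71 ± 0.40).

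Of 22 genes of undifferentiated spermatogonia, 17 had a negative log2 fold change, 1 (4.5%) was wholly higher and 2 (9.1%) wholly lower, and the median was -0.56, or -0.07 without Y18M replicate 2. UCHL1 (ENSBTAG00000005078), a deubiquitinase of spermatogonia, stood at 69.1, 229.5 and 109.9 CPM at 18 months and at 56.8, 60.6 and 69.3 CPM at 4 years (log2 fold change -1.13 ± 0.41), and ZBTB16 (ENSBTAG00000011266), a repressor needed for stem cell renewal, at 4.81, 14.9 and 9.21 CPM and then at 5.17, 3.86 and 5.38 CPM (log2 fold change -1.0 ± 0.38). Both overlapped. FOXO1 (ENSBTAG00000044105) was wholly lower, at 13.1, 40.6 and 18.1 CPM and then 11.2, 10.8 and 10.8 CPM (log2 fold change -1.13 ± 0.37), whereas LHX1 (ENSBTAG00000033562), a transcription factor induced by GDNF in mouse spermatogonial stem cells, was wholly higher, at 16.8, 5.13 and 12.1 CPM and then 23.7, 23.4 and 24.9 CPM (log2 fold change 1.08 ± 0.37).

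Of 15 genes of differentiating spermatogonia, 0 were wholly higher and 3 (20%) wholly lower, with a median of -0.19. STRA8 (ENSBTAG00000001346), the gate to meiosis under retinoic acid, overlapped at 7.53, 4.38 and 7.003 CPM and then 6.33, 11.2 and 8.51 CPM (log2 fold change 0.46 ± 0.47), as did SOHLH1 (MSTRG.3454), a spermatogonial transcription factor, at 23.8, 72.7 and 36.02 CPM and then 23.7, 22.3 and 24.9 CPM (log2 fold change -0.90 ± 0.48). CRABP1 (ENSBTAG00000012909), a carrier of retinoic acid, was wholly lower, at 16.6, 45.9 and 22.9 CPM and then 10.9, 10.6 and 11.7 CPM (log2 fold change -1.36 ± 0.39). In the mitotic cell cycle list, 2 (5.3%) of 38 genes were wholly higher and 8 (21.1%) wholly lower, and the median of 0.07 became -0.03 with library size as the only scaling or without Y18M replicate 2. The sign was positive for 22 of the 38. MCM3 (ENSBTAG00000010721), of the replicative helicase, stood at 59.3, 67.5 and 68.6 CPM at 18 months and at 33.1, 42.6 and 33.4 CPM at 4 years (log2 fold change -0.84 ± 0.22), and CDC6 (ENSBTAG00000010384), which loads that helicase, at 34.2, 50.5 and 38.6 CPM and then at 30.6, 29.6 and 28.9 CPM (log2 fold change -0.47 ± 0.18). The 18-month animals were close together in MCM3, so that its margin did not rest on a single library.

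Of 50 tested Sertoli cell genes, 40 had a negative log2 fold change, 10 (20%) were wholly lower and 5 (10%) wholly higher, and the median was -0.57, or -0.26 without Y18M replicate 2. EdgeR called 20 lower and 3 higher without Y18M replicate 1. The immaturity hormone AMH (ENSBTAG00000014955) stood at 726, 951 and 975 CPM at 6 months, at 12.5, 101 and 42.1 CPM at 18 months and at 7.59, 4.04 and 4.91 CPM at 4 years (log2 fold change -3.24 ± 0.66). Even the lowest 18-month animal was 1.65-fold above the highest 4-year animal. INHA (ENSBTAG00000009972), the inhibin α subunit, stood at 128, 699.6 and 272 CPM and then at 106, 106 and 112 CPM (log2 fold change -1.76 ± 0.52), and DHH (ENSBTAG00000000124), the Sertoli signal to Leydig and peritubular cells, at 14.3, 30 and 15.7 CPM and then at 9.05, 7.64 and 10.96 CPM (log2 fold change -1.12 ± 0.33). Both were wholly lower, INHA by a narrow margin over Y18M replicate 1. The transcription factor gene SOX9 (ENSBTAG00000045824), which marks Sertoli cells throughout life, overlapped, at 17.5, 37.05 and 26.2 CPM and then 20.3, 16.2 and 15.9 CPM (log2 fold change -0.62 ± 0.26).

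ALDH1A1 (ENSBTAG00000008103), a retinal dehydrogenase that makes retinoic acid, was among the 5 wholly higher Sertoli list genes, at 201, 328 and 436 CPM at 18 months and 621, 611 and 592 CPM at 4 years (log2 fold change 0.92 ± 0.27). Here Y18M replicate 1 was the farthest of its age from the 4-year animals, the reverse of the sperm genes. The 6-month libraries held 2205, 2178 and 2165 CPM, so that the 18-month animals were lowest of the 3 ages. The other 4 were MRO, DAPL1, HSD17B1 and PRND.

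Of 31 blood-testis barrier junction genes, 6 (19.4%) were wholly lower and 2 (6.5%) wholly higher, with a median of -0.37, or -0.07 without Y18M replicate 2. CLDN11 (ENSBTAG00000019060), the claudin on which the barrier depends in the mouse, overlapped, at 210.3, 328 and 327 CPM at 18 months and 206, 179 and 222 CPM at 4 years (log2 fold change -0.51 ± 0.55). The desmosomal genes PKP2 (ENSBTAG00000002651), at 6.96, 18.9 and 11.5 CPM and then 4.83, 3.57 and 3.13 CPM (log2 fold change -1.70 ± 0.42), and DSG2 (ENSBTAG00000021923), at 4.64, 10.1 and 4.73 CPM and then 2.38, 3.07 and 2.53 CPM (log2 fold change -1.28 ± 0.34), were wholly lower. So was CLDN5 (ENSBTAG00000022020), a claudin of endothelium and Sertoli cells, at 7.29, 43.7 and 18.6 CPM and then 6.67, 6.16 and 5.54 CPM (log2 fold change -1.92 ± 0.54), with little margin over Y18M replicate 1.

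Of 31 tested Leydig cell genes, 4 (12.9%) were wholly higher and 5 (16.1%) wholly lower, shares near those of all genes, with a median of -0.33, or -0.16 without Y18M replicate 2. INSL3 (ENSBTAG00000025775), the Leydig cell hormone that guides testis descent, overlapped, at 2192, 5175 and 4339 CPM at 18 months and 3762, 3964 and 2226 CPM at 4 years (log2 fold change -0.23 ± 0.39). CYP11A1 (ENSBTAG00000006934), the first enzyme of steroid synthesis, was wholly lower, at 21.5, 33.8 and 23.8 CPM and then 14.2, 19.3 and 11 CPM (log2 fold change -0.83 ± 0.26), while FDX1 (ENSBTAG00000011793), the electron donor of that enzyme, was wholly higher, at 36.2, 18.1 and 25.6 CPM and then 45.8, 56.5 and 42.3 CPM (log2 fold change 0.86 ± 0.26). HSD17B3 (ENSBTAG00000016867), which makes testosterone from androstenedione and marks the adult type of Leydig cell in the mouse, was wholly higher, at 16.8, 10.6 and 17.9 CPM and then 27.98, 24.8 and 30.6 CPM (log2 fold change 0.88 ± 0.24), from 3.38, 2.73 and 2.61 CPM at 6 months.

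CYP17A1 (ENSBTAG00000014335), whose symbol is carried by 3 identifiers, stood at 271, 509 and 517 CPM at 18 months and at 193, 274 and 131 CPM at 4 years for the most abundant of them (log2 fold change -1.12 ± 0.35). The ages overlapped because Y18M replicate 1 lay just under the highest 4-year animal. The aromatase gene CYP19A1 (ENSBTAG00000014890), which turns androgen into oestrogen, overlapped, at 95.8, 27.8 and 50.4 CPM and then 41.5, 56.3 and 58.2 CPM (log2 fold change -0.16 ± 0.38). AKR1C4 (ENSBTAG00000022564), an aldo-keto reductase of steroids, was wholly lower, at 6.53, 13.6 and 8.23 CPM and then 3.85, 3.07 and 2.85 CPM (log2 fold change -1.54 ± 0.30). Of 25 cholesterol genes, 1 (4%) was wholly higher and 4 (16%) wholly lower, with a median of 0.13, or 0.03 without Y18M replicate 2. Among the wholly lower members was SREBF1 (ENSBTAG00000007884), a transcription factor of lipid synthesis, at 33.3, 107 and 46.6 CPM and then 27.2, 26.9 and 20.3 CPM (log2 fold change -1.33 ± 0.39).

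Matrix and interstitial genes had mostly negative log2 fold changes, none of them called by edgeR. Of 48 extracellular matrix genes, 41 had a negative log2 fold change, 10 (20.8%) were wholly lower and 1 (2.1%) wholly higher, and the median was -0.76. Their mean log2 level lay 0.04 below the 4-year mean in Y18M replicate 1, but 1.31 and 0.53 above it in replicates 2 and 3. Without Y18M replicate 1, edgeR called 30 lower and 2 higher, and without Y18M replicate 2 the median was -0.23. VCAN (ENSBTAG00000014906), the large proteoglycan versican, stood at 21.2, 199 and 80.4 CPM at 18 months and at 14.7, 14.4 and 13.3 CPM at 4 years (log2 fold change -2.82 ± 0.64). COL18A1 (ENSBTAG00000023907), a basement membrane collagen, stood at 34.9, 185 and 68.6 CPM and then at 25.1, 18.6 and 17.1 CPM (log2 fold change -2.25 ± 0.53), and NID1 (ENSBTAG00000007244), which links laminin to collagen, at 22.9, 83.6 and 38.3 CPM and then at 18.8, 13.5 and 14.8 CPM (log2 fold change -1.62 ± 0.41). ELN (ENSBTAG00000019517), elastin, stood at 11.6, 45.5 and 23.96 CPM and then at 7.63, 6.398 and 5.86 CPM (log2 fold change -2.03 ± 0.48), and COL1A1 (ENSBTAG00000013103), the fibrillar collagen of fibroblasts, at 4.54, 25.8 and 7.98 CPM and then at 3.302, 4.01 and 1.39 CPM (log2 fold change -2.13 ± 0.66). All 5 were wholly lower. DCN (ENSBTAG00000003505), the abundant interstitial proteoglycan decorin, overlapped, at 37.7, 87.8 and 67.8 CPM and then 36.3, 44.2 and 52.3 CPM (log2 fold change -0.54 ± 0.31).

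Of 31 genes of interstitial progenitors and fibroblasts, 12 (38.7%) were wholly lower and 0 wholly higher, with a median of -0.83, or -0.51 without Y18M replicate 2. NES (ENSBTAG00000015794), an intermediate filament of Leydig cell progenitors, stood at 13.5, 38.1 and 31.8 CPM at 18 months and at 7.22, 8.34 and 6.93 CPM at 4 years (log2 fold change -1.89 ± 0.36), without overlap. DPT (ENSBTAG00000021211), a matrix protein of universal fibroblasts, stood at 5.703, 50.5 and 17.6 CPM and then at 5.004, 5.34 and 3.44 CPM (log2 fold change -2.42 ± 0.66), and C1S (ENSBTAG00000004840), a complement protease made by fibroblasts, at 162, 549.6 and 299 CPM and then at 122, 119.9 and 99.1 CPM (log2 fold change -1.57 ± 0.41). Both were wholly lower with Y18M replicate 2 highest. DLK1 (ENSBTAG00000037899), an imprinted marker of immature Leydig cells, overlapped, at 1.99, 13.6 and 3.31 CPM and then 1.33, 1.33 and 3.56 CPM (log2 fold change -1.61 ± 0.77).

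Of 22 peritubular and smooth muscle genes, 4 (18.2%) were wholly lower and 0 wholly higher, with a median of -0.72, or -0.16 without Y18M replicate 2. ACTA2 (ENSBTAG00000014614), smooth muscle actin, overlapped, at 73.7, 389 and 199 CPM at 18 months and 76.4, 70.99 and 80.9 CPM at 4 years (log2 fold change -1.53 ± 0.56), since Y18M replicate 1 lay among the older animals. The actin cross-linker gene FLNA (ENSBTAG00000011190), at 87.9, 471 and 211 CPM and then 85.7, 79.4 and 83.9 CPM (log2 fold change -1.63 ± 0.49), and PDLIM3 (ENSBTAG00000017183), a Z-line protein, at 15.8, 75.1 and 40.5 CPM and then 11.98, 13.3 and 13.7 CPM (log2 fold change -1.75 ± 0.45), were wholly lower. Of 27 endothelial genes, 3 (11.1%) were wholly lower and 1 (3.7%) wholly higher, with a median of -0.14, or -0.04 without Y18M replicate 2. VWF (ENSBTAG00000012265), the clotting factor of endothelium, overlapped, at 67.9, 56 and 125 CPM and then 93.3, 93.2 and 94.2 CPM (log2 fold change 0.17 ± 0.32), and ENG (ENSBTAG00000008997), a TGF-β co-receptor, was wholly lower, at 3.65, 10.4 and 4.701 CPM and then 3.51, 2.005 and 3.25 CPM (log2 fold change -1.10 ± 0.41).

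Apart from the mitochondrially encoded genes, the T cell list and the antigen presentation list had the lowest medians. Of 28 T cell and pan-leukocyte genes, 11 (39.3%) were wholly lower, each at least 2-fold, and 0 wholly higher, with a median of -1.73, or -1.06 without Y18M replicate 2. Without Y18M replicate 1, edgeR called 19 lower and 0 higher. The list mean lay 0.18 above the 4-year mean in Y18M replicate 1, within the range of the older animals, and 2.08 and 1.07 above it in replicates 2 and 3. LCK (ENSBTAG00000012695), the kinase of the T cell receptor, stood at 6.698, 32.6 and 11.8 CPM at 18 months and at 3.37, 3.92 and 3.05 CPM at 4 years (log2 fold change -2.30 ± 0.57). CD7 (ENSBTAG00000011359), a surface protein of T cells and their precursors, stood at 2.79, 17.2 and 4.31 CPM and then at 1.43, 1.36 and 0.792 CPM (log2 fold change -2.75 ± 0.70). The ages did not overlap, and the 6-month values of LCK, at 40.7, 34.2 and 17.4 CPM, were also above those at 4 years. The 28 levels added up to 136, 646 and 259.9 CPM at 18 months and to 94.02, 285 and 243 CPM at 4 years. These sums overlapped. CD247, a chain of the T cell receptor complex picked out here after its values were seen, stood at 4.6, 156 and 148 CPM in the 4-year animals. Whether the sums overlap without CD247 was not tested. GZMA (ENSBTAG00000021958), a protease of cytotoxic cells, stood at 0.298, 0.582 and 0.908 CPM at 18 months. At 4 years it stood at 0.0681, 0 and 0 CPM, with 2 counts in all. The 18-month level was 26.5-fold higher with a counting interval of 6.99 to 224, which leaves out the spread between animals.

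Of 38 genes of antigen presentation and the interferon response, 19 (50%) were wholly lower and 0 wholly higher, with a median of -1.08, or -0.63 without Y18M replicate 2, and edgeR called 26 lower and 1 higher without Y18M replicate 1. CXCL9 (ENSBTAG00000050852), a chemokine induced by interferon γ, stood at 12.7, 94.6 and 45.03 CPM at 18 months and at 3.23, 5.81 and 8.47 CPM at 4 years (log2 fold change -3.12 ± 0.75). IRF1 (ENSBTAG00000031231), a transcription factor of the same response, stood at 31.9, 120.1 and 68.5 CPM and then at 21.3, 19.4 and 18.2 CPM (log2 fold change -1.90 ± 0.43), and MX1 (ENSBTAG00000030913), an antiviral GTPase, at 4.71, 14.8 and 9.92 CPM and then at 4.05, 2.89 and 3.01 CPM (log2 fold change -1.57 ± 0.37). All 3 were wholly lower. The class II gene named HLA-DRB3 (ENSBTAG00000013919) in the count table stood at 34.8, 71.7 and 54.4 CPM and then at 11.4, 15.1 and 11.8 CPM (log2 fold change -2.07 ± 0.34), and CD40 (ENSBTAG00000020736), a receptor of antigen-presenting cells, at 17.8, 35.2 and 23.02 CPM and then at 8.75, 7.61 and 5.501 CPM (log2 fold change -1.80 ± 0.31). Both were more than 2-fold apart between their nearest animals. Class II genes are polymorphic members of a family, so the count of HLA-DRB3 is uncertain.

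Of 30 tested macrophage genes, 4 (13.3%) were wholly higher and 5 (16.7%) wholly lower, again near the shares of all genes, with a median of -0.38, or -0.04 without Y18M replicate 2. MRC1 (ENSBTAG00000038048), the mannose receptor of resident macrophages, stood at 24.1, 28.1 and 26.6 CPM at 6 months, at 63.9, 28.7 and 54.98 CPM at 18 months and at 125, 142 and 160.4 CPM at 4 years (log2 fold change 1.53 ± 0.28). F13A1 (ENSBTAG00000007268), a transglutaminase of resident macrophages, stood at 9.42, 6.397 and 7.75 CPM and then at 16.8, 20.7 and 16.03 CPM (log2 fold change 1.18 ± 0.24), and the scavenger receptor gene CD163 (ENSBTAG00000019669) at 5.37, 9.07 and 8.95 CPM and then at 13.9, 17.4 and 26.9 CPM (log2 fold change 1.31 ± 0.31). The ages did not overlap, although CD163 is the symbol of 7 identifiers and the most abundant is given. FCGR3A (ENSBTAG00000002096), an Fc receptor of monocytes and killer cells, was wholly lower, at 5.01, 18.8 and 11.7 CPM and then 2.14, 2.92 and 2.77 CPM (log2 fold change -2.18 ± 0.55). CD14 (ENSBTAG00000015032), the co-receptor for endotoxin, overlapped, at 93.3, 20.9 and 48.1 CPM and then 30.5, 31.9 and 31.8 CPM (log2 fold change -0.79 ± 0.44).

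**Figure D5:**
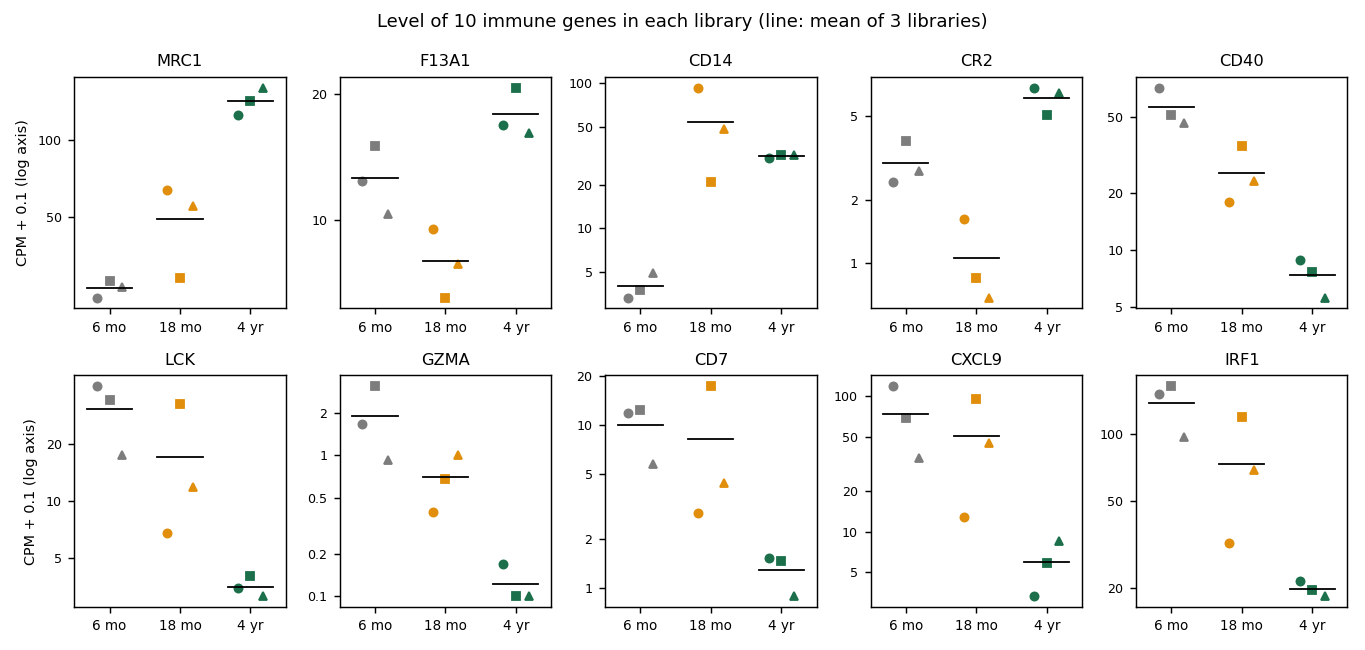
Level of 10 immune genes in each of the 9 gene libraries as CPM + 0.1 on a log axis, with circles, squares and triangles for replicates 1, 2 and 3 and a line at the mean of 3 libraries. MRC1, F13A1 and CR2 are wholly higher at 4 years, CD14 overlaps, and CD40, LCK, GZMA, CD7, CXCL9 and IRF1 are wholly lower.

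Among 15 B and plasma cell genes, 1 (6.7%) was wholly higher and 1 wholly lower, with a median of -0.26, which became 0.07 without Y18M replicate 2. PAX5 (ENSBTAG00000012498), the B cell identity factor, stood at 1.69, 0.718 and 1.75 CPM at 18 months and at 4.87, 7.96 and 4.63 CPM at 4 years (log2 fold change 2.07 ± 0.58), while IRF4 (ENSBTAG00000031214), on 2 identifiers, stood at 8.36, 27.5 and 13.9 CPM and then at 2.31, 2.71 and 2.49 CPM (log2 fold change -2.72 ± 0.42). The complement receptor gene CR2 (ENSBTAG00000038496), of B cells and follicular dendritic cells, was wholly higher, at 1.53, 0.753 and 0.584 CPM and then 6.74, 4.95 and 6.37 CPM (log2 fold change 2.65 ± 0.43), a nearest ratio of 3.25. Of 9 mast cell and granulocyte genes, 2 (22.2%) were wholly lower, with a median of -0.08 that became 0.0032 with the size factors of DESeq2 and 0.25 without Y18M replicate 2, and LTF (ENSBTAG00000001292), lactoferrin, was among them at 30.9, 66.5 and 43.3 CPM and then 16.7, 19.5 and 25.6 CPM (log2 fold change -1.19 ± 0.33). CCL25 (ENSBTAG00000005581), a chemokine that was abundant at 6 months with 337, 237 and 347 CPM, stood at 0.829, 0.479 and 0.486 CPM at 18 months and at 0.953, 0.649 and 0.9102 CPM at 4 years (log2 fold change 0.48 ± 0.30) with overlap.

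Of 24 tested imprinted growth genes, none called by edgeR, 5 (20.8%) were wholly lower and 0 wholly higher, with a median of -0.80, or -0.36 without Y18M replicate 2. Their mean log2 level lay 0.06, 1.08 and 0.45 above the 4-year mean in Y18M replicates 1, 2 and 3. IGF2 (ENSBTAG00000013066), the fetal insulin-like growth factor, stood at 821, 883 and 989 CPM at 6 months, at 112, 480.3 and 211 CPM at 18 months and at 93.95, 76.6 and 71.6 CPM at 4 years (log2 fold change -1.73 ± 0.45). PEG3 (ENSBTAG00000054572) stood at 21.02, 48.9 and 24.7 CPM and then at 17.8, 16.3 and 15.4 CPM (log2 fold change -0.94 ± 0.30), and NNAT (ENSBTAG00000003212), neuronatin, at 8.65, 18.3 and 9.37 CPM and then at 4.83, 4.48 and 5.62 CPM (log2 fold change -1.28 ± 0.31). The ages did not overlap for any of the 3. Of 21 insulin-like growth factor system genes, IGF2 included, 5 (23.8%) were wholly lower and 0 wholly higher, with a median of -0.68, or -0.35 without Y18M replicate 2. IRS1 (ENSBTAG00000021308), the docking protein of the insulin receptors, stood at 0.796, 2.05 and 0.908 CPM and then at 0.03404, 0.295 and 0.119 CPM (log2 fold change -2.99 ± 0.65), and the binding protein gene IGFBP6 (ENSBTAG00000021467) at 24.6, 99.6 and 60.5 CPM and then at 17.3, 20.1 and 20.1 CPM (log2 fold change -1.68 ± 0.43), both without overlap.

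Energy metabolism outside the sperm isoenzymes gave small differences in which Y18M replicate 1 took part. Of 44 nuclear genes of oxidative phosphorylation, 11 (25%) were wholly lower and 1 (2.3%) wholly higher, with a median of -0.20, or -0.12 without Y18M replicate 2, and no wholly separate member at least 2-fold apart. The list mean lay 0.12, 0.19 and 0.25 above the 4-year mean in Y18M replicates 1, 2 and 3, each outside the range of the 4-year animals. SDHC (ENSBTAG00000015853), a subunit of succinate dehydrogenase, stood at 68.97, 129.5 and 96.3 CPM at 18 months and at 46.2, 54.8 and 47.6 CPM at 4 years (log2 fold change -0.99 ± 0.23), and COX5B (ENSBTAG00000053107), of cytochrome oxidase, at 86.7, 123 and 111 CPM and then at 65.6, 77.3 and 66.8 CPM (log2 fold change -0.61 ± 0.18). Both were wholly lower, and both symbols are carried by 2 identifiers. The 7 mitochondrially encoded genes had a median of -8.50 and 1 wholly lower member, COX3 (ENSBTAG00000043560), at 1.36, 1165 and 2.53 CPM and then 1.06, 0.826 and 1.35 CPM. Their difference was that of Y18M replicate 2 alone, since the median was -0.12 without it. Whether these reads were handled alike in all libraries is not known.

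Of 31 hypoxia response genes, 4 (12.9%) were wholly higher and 5 (16.1%) wholly lower, with a median of -0.05 that became 0.02 with the size factors of DESeq2 or without Y18M replicate 2. EPAS1 (ENSBTAG00000003711), the oxygen-regulated transcription factor HIF-2α, was wholly higher, at 21.5, 23.2 and 15.1 CPM at 18 months and 29.8, 30.2 and 36.8 CPM at 4 years (log2 fold change 0.69 ± 0.21). The glycolytic gene PGK1 (ENSBTAG00000000894) was wholly lower, at 49.6, 144 and 92.5 CPM and then 39.5, 42.9 and 36.5 CPM (log2 fold change -1.26 ± 0.33). Of 30 immediate early genes, 4 (13.3%) were wholly lower and 1 (3.3%) wholly higher, with a median of -0.74, or -0.08 without Y18M replicate 2, and FOSL2 (ENSBTAG00000023929), of the AP-1 family, was among the lower at 12.7, 35.99 and 24.7 CPM and then 11.5, 12.5 and 10.9 CPM (log2 fold change -1.07 ± 0.32). Of 18 ageing and senescence genes, 3 (16.7%) were wholly lower and 1 (5.6%) wholly higher, with a median of -0.37, or -0.20 without Y18M replicate 2. None of 8 erythrocyte genes was free of overlap, and their median was -0.18, or 0.80 without Y18M replicate 2.

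Only 8 of 25 genes of the rete testis, efferent ducts and epididymis passed the filter on low counts, and 3 (37.5%) of these were wholly higher, with a median of 0.59, or 0.34 without Y18M replicate 2. Their mean log2 level lay 0.41, 0.91 and 0.26 below the 4-year mean in Y18M replicates 1, 2 and 3. CRISP3 (ENSBTAG00000012918), a secretory protein with close relatives in sperm, stood at 3.75, 0.171 and 4.77 CPM at 18 months and at 12.9, 6.81 and 12.3 CPM at 4 years (log2 fold change 1.88 ± 0.90), and SLC34A2 (ENSBTAG00000001545), a phosphate transporter, at 2.75, 0.513 and 0.9402 CPM and then at 6.64, 3.36 and 3.92 CPM (log2 fold change 1.72 ± 0.58). The ages did not overlap. Whether more duct tissue in the older samples took part in any difference was not tested.

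Levels between genes were compared per transcript length, in the deposited FPKM values. The most abundant uniquely named gene at 4 years was HSPB9, a small heat shock protein of the testis, at 4583 ± 333 FPKM (SD, n = 3) against 2885 ± 1945 FPKM at 18 months. INSL3 came next at 4238 ± 1074 FPKM, after 5330 ± 2293 FPKM at 18 months, and GSTM3, a glutathione transferase, stood at 3008 ± 208 and 2882 ± 76.6 FPKM. TNP1 stood at 2305 ± 286 FPKM at 4 years against 976 ± 983 FPKM at 18 months, and PRM2 at 1767 ± 323 against 629 ± 619 FPKM. The SDs of TNP1 and PRM2 at 18 months were about as large as their means. Among the 18-month animals TNP1 stood at 2038, 96.5 and 794 FPKM in replicates 1, 2 and 3, PRM2 at 1294, 68.9 and 524 FPKM and HSPB9 at 4731, 855 and 3069 FPKM. Replicate 2 was the lowest in each.

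The authors' deposited table of this comparison, coded as 18 months over 4 years, lists 247 genes with a false discovery rate of at most 0.0493, of which 183 were lower and 64 higher at 4 years. Of these, 245 were tested here, all 245 had the same direction, 243 did not overlap between the ages and 240 were also at least 2-fold apart, whereas the edgeR test called 1. Of the genes described above, the authors' deposited table lists MFSD4A with a false discovery rate of 7.91e-12 and GSTA2 with 1.09e-10. It also lists AMH with 0.00151, MRC1 with 0.0102 and VCAN with 0.0113. The authors' deposited table was made from the same 6 libraries and is no independent support.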

How the data were processed

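Gene-level values of 9 gene libraries were analysed, and the small RNA libraries of the same animals were not used here. The authors deposited a table of estimated counts per gene and FPKM values (fragments scaled by transcript length and library size) side by side, per the file headers, and a second table of their own comparison with log2 fold changes, p-values and FDR. Per the submitters' processing notes, fastp 0.18.0, HISAT2 2.1.0, StringTie 1.3.4 and the cattle genome build UMD3.1 were used, and the counting program is not given in the sources used here. Identifiers are those of cattle genes, and reads of yak that differ from that genome may be counted less. Use of strand is not stated, so overlapping antisense genes cannot be told apart.

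Estimated counts, of which 3137 genes had at least 1 value that was not whole, were rounded. Genes passing filterByExpr (16742 of 22183) were scaled by TMM and fitted with edgeR 4.0.16 in R 4.3.3 (glmQLFit and glmQLFTest) over 9 libraries with age as the only factor and 6 residual degrees of freedom, and p-values were adjusted by Benjamini-Hochberg over all tested genes. Standard errors are the log2 fold change divided by the square root of F. They rest on a spread estimated over all 9 libraries together. As the 18-month libraries spread more widely than the others, these standard errors may be too small. Recovery by this fit was tested on simulated data with 1 trended dispersion for all 9 libraries (16570 genes, 4 years against 18 months). The fit recovered 12% of genes changed 2-fold, 90% of those changed 4-fold, 98% of those changed 8-fold and 100% of those changed 16-fold. Each set held 50 genes, and there were 7 false calls. These data lacked the wider spread at 18 months, a median SD of log2 CPM of 0.494 against 0.176 at 4 years. Their shares therefore do not tell what part of real changes was called here. DESeq2 1.42.0, limma 3.58.1, other scalings, no filter, a replicate block and leaving out each replicate were alternatives.

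The comparison, its 37 gene lists (from textbook knowledge) and the tests were chosen with earlier results of these data known. Named genes are 29 tested anchor genes, per direction the 12 genes of smallest p and the 6 of widest gap at a mean of at least 10 CPM, and up to 4 members of smallest p per list. The text gives a part of these, picked for length after their values were seen. The values of 4 of the named genes, the gene called by edgeR among them, are not reported here. Where a symbol stands on several identifiers, the most abundant is given. No sequences or coordinates are given, since no genome of the build was used here.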

Additional observations from a re-analysis of the deposited data

How the results depend on the processing

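The count of edgeR calls, 0 higher and 1 lower, was the same with the size factors of DESeq2, with library size alone, without a filter on low counts and with limma-voom at 1 weight per age. The 6 libraries of the 2 ages alone gave 0 lower calls, DESeq2's own test 187 higher and 687 lower, and limma-voom with a weight per library 4512 and 4492, where Y18M replicates 1, 2 and 3 had weights of 0.21, 0.11 and 8.31. Leaving out each replicate gave 0 to 2247 higher and 0 to 3360 lower calls, the highest without Y18M replicate 1 and 0 lower without any 4-year replicate. The wholly higher genes ranged from 2251 to 5132 and the wholly lower from 2617 to 5667 when each replicate was left out, and those also at least 2-fold apart from 504 to 2701 and from 481 to 2843. Without Y4Y replicate 3 the wholly higher genes numbered 3204. With 4-fold in place of 2-fold, 79 were higher and 218 lower. With a library left out, fewer values have to lie apart, so the wholly higher and wholly lower counts can rise from that alone. Both rose in every such setting, from 1981 and 2278 with all libraries. What part of each rise this made up was not tested, nor was the cause of the other shifts. Library size alone moved the median log2 fold change of all genes from -0.03 to -0.13, so differences under it are relative to that shift.

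The replicate numbers name different animals. The deviations of same-numbered animals of the 2 ages correlated at 0.05, -0.11 and -0.04 across genes, so the numbers do not pair the samples, and the replicate block as a term again gave 0 higher and 1 lower call.

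Of 131 genes given with values, 116 were called without Y18M replicate 1 and 66 by DESeq2. Over all genes, 13.2% were called higher and 19.8% lower without Y18M replicate 1, and 1.16% and 4.25% by DESeq2. Many of the 131 were named for a small p or a wide gap in these same libraries. A share above that of all genes therefore follows from the choice. The direction turned for 4 genes that overlapped between the ages. The log2 fold change of SYCP3, -0.04, became 0.029 with the size factors of DESeq2, 0.0299 with DESeq2's test, and -0.15 to 0.038 without single replicates. INSL3, at -0.23, ranged from -0.52 to 0.025 without single replicates. CYP19A1, at -0.16, became 0.00199 and 0.0162 with limma-voom weighted by age and by library and ranged from -0.49 to 0.41. VWF, at 0.17, became -0.39 with limma-voom weighted by library and ranged from -0.039 to 0.59. In simulated data with 1 trended dispersion for all libraries, 12% of 2-fold and 90% of 4-fold changes were called. Those data lacked the wider spread at 18 months, so these shares cannot be carried over to this comparison. Why few genes were called here was not tested.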
